A study of Mus musculus with 28 samples.

Results

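Hoxa9, Hoxa10, Hoxa11 and Hoxa13 are the 4 genes at the posterior, 5′ end of the mouse HoxA cluster, and they were taken by symbol as 4 of the 28244 genes counted in 28 RNA-seq libraries of 11 groups. The study asked whether neural stem cells derived from tissues outside the brain (peripheral neural stem cells, pNSCs) resemble neural stem cells of the brain (NSCs), and whether they descend from the neural crest. PolyA-selected RNA was sequenced from pNSCs, from brain NSCs, from the tissues the pNSCs came from, and from neural crest stem cells (NCSCs) of the dorsal root ganglion (DRG), a sensory ganglion beside the spinal cord. The libraries held 9808246 to 22637031 counts, so that the 3 counts taken as the smallest detectable amount stood for 0.131 to 0.294 cpm, the unit of counts relative to library size after TMM scaling. Intervals and bounds built on counts below cover counting error only.

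The Nes-GFP mice carry GFP under regulatory elements of Nestin, an intermediate filament of neural progenitors. Their 5 groups had 2 libraries each: pNSCs from sorted GFP+ cells of the postnatal tail (Nes-GFP tail pNSCs), pNSCs from sorted GFP+ cells of the adult lung (Nes-GFP lung pNSCs), brain NSCs, cells of the tail and cells of the lung. The labels of these 10 libraries name no mouse line, and they were placed in the Nes-GFP experiment because the study describes one with the same tissues and numbers. The Wnt1Cre-mTmG mice carry a Wnt1-driven Cre and a reporter at the R26 locus that turns from membrane Tomato to membrane GFP in neural crest cells and their progeny, and also in part of the midbrain. Their groups were pNSCs from postnatal tail, grown from unsorted cells and described as Tomato+ and GFP-, pNSCs from DRG, and brain NSCs, with 3 libraries each. They were compared with 3 libraries of DRG NCSCs, which the study derived from adult wild-type mice, although the labels' protocol lists DRG cells as postnatal. If the donors were adult, age differs as well in each comparison of the postnatal pNSCs with NCSCs and cannot be told apart. The Sox2-GFP mice carry GFP knocked into Sox2, a gene of neural progenitors, and gave pNSCs from sorted GFP+ cells of the postnatal lung and brain NSCs, with 3 libraries each. The 2 libraries of lung cells served this experiment too. Adult donors were 4 to 6 weeks old and postnatal donors 1 to 5 days old. Clusters of pNSCs were picked by hand, were usually clonal, and were expanded like the brain NSCs in medium with EGF and bFGF. All labels give the strain C57BL/6, whereas the methods describe wild-type mice of other and mixed backgrounds. The study calls the replicates biological, and states that control brain NSCs mostly came from the animals that gave the pNSCs. The labels number the replicates without saying that they were separate animals or cultures. The p-values therefore measure only the spread between these libraries.

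Hox genes encode homeodomain transcription factors and lie in 4 clusters, HoxA to HoxD. Along each cluster, genes at the 3′ end are expressed from the hindbrain backwards and genes at the 5′ end only in more caudal parts of the body, so the set of Hox genes that a cell transcribes records its position along the body axis. Hoxa9 acts in the thoracic and lumbar region and in blood progenitors, Hoxa10 in lumbar vertebrae and the uterus, Hoxa11 in the forearm skeleton, kidney and uterus, and Hoxa13 in the digits, the hindgut and the genital tubercle. The developing forebrain transcribes no Hox genes. Cultured cells often keep the Hox pattern of the site they were taken from.

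The homeobox, which encodes the DNA-binding homeodomain, is shown for Hoxa10, Hoxa11 and Hoxa13 because it is the stretch in which they resemble each other and their counterparts in the other clusters most, and so the stretch in which short reads could be confused. Each sequence was read from GRCm38 on the minus strand of chromosome 6, and lies in the last exon of its gene. The positions are chr6:52232554-52232733 for Hoxa10, chr6:52243402-52243581 for Hoxa11 and chr6:52258928-52259107 for Hoxa13. The homeobox spans 180 bases, and the capitals mark 24 bases (8 codons) in the part that encodes the DNA-reading helix.
Hoxa10: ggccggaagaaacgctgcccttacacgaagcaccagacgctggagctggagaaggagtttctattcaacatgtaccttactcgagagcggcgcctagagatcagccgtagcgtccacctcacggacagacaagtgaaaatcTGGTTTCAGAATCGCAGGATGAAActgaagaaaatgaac
Hoxa11: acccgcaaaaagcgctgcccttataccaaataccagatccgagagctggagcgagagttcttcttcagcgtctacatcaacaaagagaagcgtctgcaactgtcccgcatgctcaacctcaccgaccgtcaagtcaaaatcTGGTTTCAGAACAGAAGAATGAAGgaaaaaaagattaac
Hoxa13: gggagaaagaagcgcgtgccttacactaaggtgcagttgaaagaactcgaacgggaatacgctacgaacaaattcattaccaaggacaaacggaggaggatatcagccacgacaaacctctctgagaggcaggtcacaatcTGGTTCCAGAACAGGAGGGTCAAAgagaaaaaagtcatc
Hoxa10 and Hoxa11 shared 67.8% of these bases. Hoxa13 was the most divergent of these 3 and shared 55.6% with Hoxa10 and 58.9% with Hoxa11. Genes of the same position in other clusters were closer than neighbours within HoxA, with 86.7% between Hoxa11 and Hoxc11 and 80.6% between Hoxa10 and Hoxc10. Among the pairs compared, the longest exact match between whole transcripts was 31 bases, between Hoxa9 and Hoxc9, and no 2 of the 4 members shared more than 17 bases in a row. The read length is not given in the sources used here, so the share of reads that could match 2 of these genes was not computed.

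By the GENCODE annotation of GRCm38, all 4 genes are transcribed from the minus strand of chromosome 6. Hoxa9 (ENSMUSG00000038227.15) lies at chr6:52223100-52231089, Hoxa10 (ENSMUSG00000000938.11) at chr6:52231197-52240854, Hoxa11 (ENSMUSG00000038210.10) at chr6:52242106-52245810 and Hoxa13 (ENSMUSG00000038203.18) at chr6:52257694-52260880. Their transcription starts follow each other over 29791 bases, 9765 from Hoxa9 to Hoxa10, 4956 on to Hoxa11 and 15070 on to Hoxa13. The noncoding Hoxa11os on the plus strand overlaps 800 bases of exons of Hoxa11, 35.0% of its exonic length. Whether counting used strand is not given in the sources used here, so reads of Hoxa11 and of Hoxa11os cannot be told apart in that stretch. The microRNA gene Mir196b lies inside Hoxa9 and was at 0 in all 28 libraries. Its 85 bases lie in exons of Hoxa9 on the same strand, the counting mode is not given, and the RNA was polyA-selected. This 0 therefore does not show whether Mir196b was transcribed.

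Hoxa9 was highest in Wnt1Cre-mTmG DRG pNSCs, where it was at 130.2, 127.2 and 126.2 cpm (127.9 ± 2.10, mean ± SD, n = 3). Tail cells followed with 41.7 and 40.5 cpm (41.1 ± 0.83, n = 2) and Wnt1Cre-mTmG tail pNSCs with 22.0, 23.7 and 23.1 cpm (22.9 ± 0.91, n = 3). DRG NCSCs held 8.77, 8.004 and 6.58 cpm (7.79 ± 1.11, n = 3). Nes-GFP tail pNSCs held 0.521 and 1.12 cpm, from 9 and 22 counts. None of these 5 groups overlapped its neighbour in this order. In the remaining 6 groups, at most 1 count was seen in any library, and the 8 libraries of brain NSCs from the 3 experiments had no count of Hoxa9. The 2 kinds of tail pNSCs lay on either side of DRG NCSCs in this order.

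Hoxa10 reached its highest level in Wnt1Cre-mTmG tail pNSCs and was the only member above 3 counts in every library of 4 of the 5 pNSC groups. It was at 44.7, 46.97 and 47.7 cpm in Wnt1Cre-mTmG tail pNSCs (46.4 ± 1.59, n = 3). Tail cells had 25.1 and 25.3 cpm (25.2 ± 0.19, n = 2) and Wnt1Cre-mTmG DRG pNSCs had 23.1, 24.03 and 20.9 cpm (22.7 ± 1.62, n = 3). These levels came from 218 to 1009 counts a library. Nes-GFP tail pNSCs held 6.43 and 7.74 cpm (7.09 ± 0.93, n = 2), and DRG NCSCs held 3.73, 3.86 and 4.00 cpm (3.86 ± 0.13, n = 3). Nes-GFP lung pNSCs had 0.758 and 0.673 cpm, from 16 and 12 counts, and were the only group of lung origin with more than 1 count in a library. All 6 groups down to this one were separated from the next in order. Lung cells were at 0, Sox2-GFP lung pNSCs had 1 count in 3 libraries together, and the 8 brain NSC libraries had 1 count in all, in a Wnt1Cre-mTmG library.

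Hoxa11 was above 1 cpm in 2 groups, both of the tail. Tail cells had 10.8 and 12.1 cpm (11.4 ± 0.87, n = 2), from 194 and 189 counts. Wnt1Cre-mTmG tail pNSCs had 6.37, 6.66 and 6.496 cpm (6.51 ± 0.14, n = 3), from 144, 143 and 128 counts. Their ranges did not overlap. DRG NCSCs had 4, 8 and 1 counts and Wnt1Cre-mTmG DRG pNSCs had 0, 0 and 1, and the ranges of both DRG groups overlapped. The other 7 groups had no count, Nes-GFP tail pNSCs included.

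Hoxa13, the last gene of the cluster, was highest in tail cells and in Wnt1Cre-mTmG tail pNSCs. Tail cells had 9.37 and 11.9 cpm (10.7 ± 1.81, n = 2), and Wnt1Cre-mTmG tail pNSCs had 10.1, 7.96 and 9.90 cpm (9.32 ± 1.18, n = 3). Their ranges overlapped. Nes-GFP tail pNSCs lay far lower at 0.290 and 0.356 cpm, from 5 and 7 counts. The first library of Nes-GFP lung pNSCs had 5 counts and the second had 0. Lung cells and Sox2-GFP lung pNSCs had at most 1 count in a library. Hoxa13 was at 0 in every library of DRG NCSCs, of Wnt1Cre-mTmG DRG pNSCs and of brain NSCs, which bounds it at 3 counts per library.

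**Figure D1:**
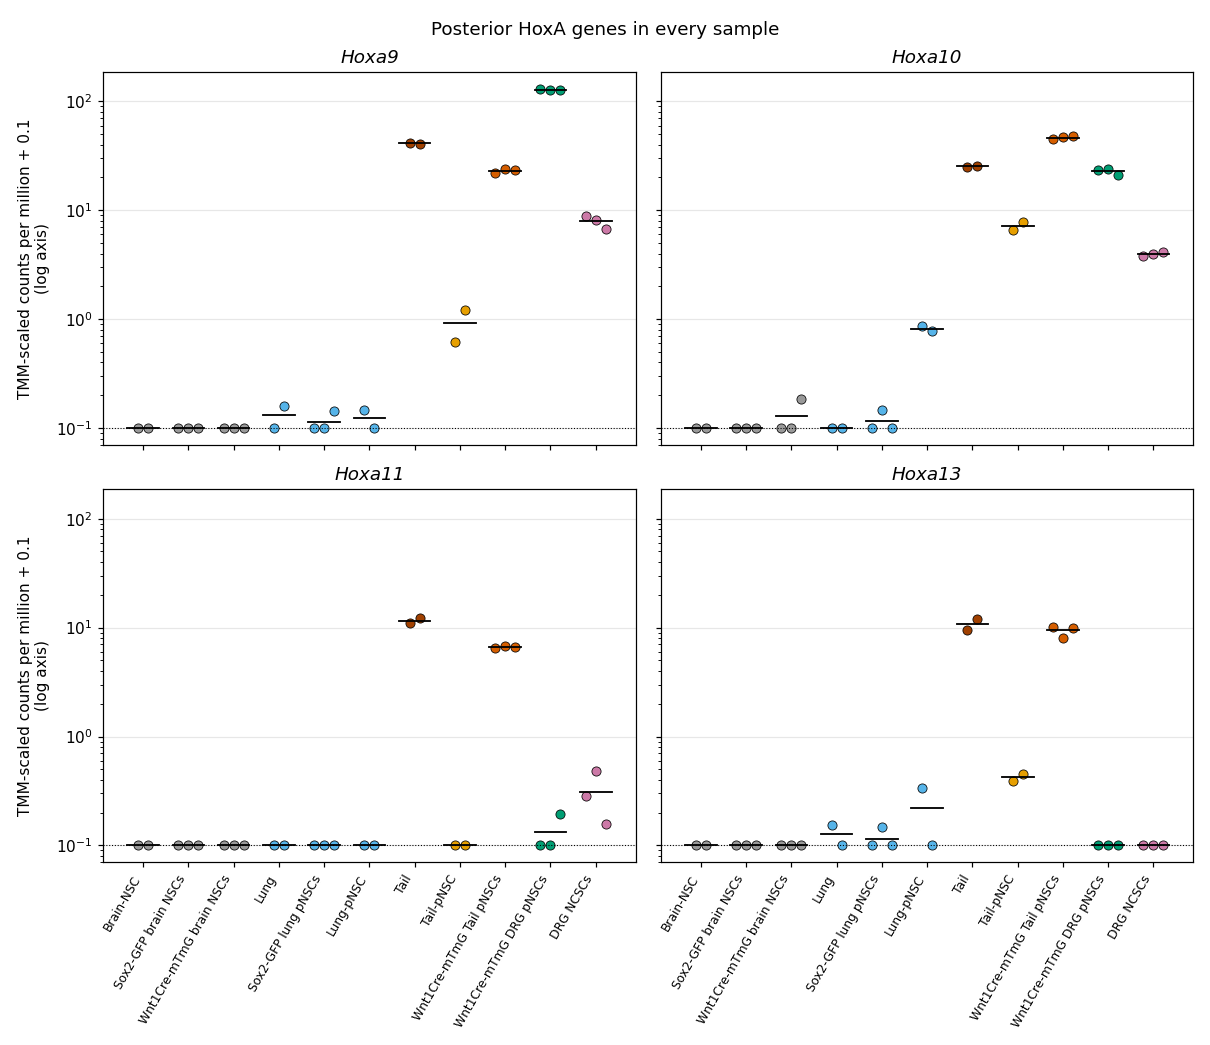
Level of each member in each of the 28 libraries, in TMM-scaled cpm with 0.1 added on a log axis, with 1 panel per gene and the 11 groups along the horizontal axis under their labels (Tail-pNSC, Lung-pNSC, Brain-NSC, Tail and Lung belong to the Nes-GFP experiment). Points are libraries, short bars are group means, and points on the dotted line are at 0. Hoxa9 peaked in Wnt1Cre-mTmG DRG pNSCs at 127.9 cpm and Hoxa10 in Wnt1Cre-mTmG tail pNSCs at 46.4 cpm, while Hoxa11 and Hoxa13 were above 1 cpm in tail cells and Wnt1Cre-mTmG tail pNSCs and in no other group.

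The first comparison asked how tail and lung pNSCs differ from brain NSCs in the Nes-GFP experiment. In Nes-GFP tail pNSCs 3 of the 4 members were higher than in brain NSCs, where all were at 0. A gene was called when its adjusted p was under 0.05 and its log2 fold change was at least 1 in either direction, and 4.31% of the 16948 genes tested were called higher in this comparison. Hoxa10 was at least 48.0-fold higher (log2 fold change 10.01 ± 0.60 SE, adjusted p = 1.50e-61, edgeR quasi-likelihood test). Hoxa9 was at least 5.56-fold higher (adjusted p = 5.42e-09) and Hoxa13 at least 2.19-fold higher (adjusted p = 0.000749). Without the second library of Nes-GFP tail pNSCs the log2 fold change of Hoxa9 was 6.23 instead of 6.93, and the call was kept. Hoxa11 had no count in either group.

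In Nes-GFP lung pNSCs, Hoxa10 was at least 4.84-fold higher than in brain NSCs (log2 fold change 6.71 ± 1.19, adjusted p = 1.07e-07). Hoxa13 also passed (log2 fold change 4.29 ± 1.84, adjusted p = 0.0497), so that 2 of 4 members were called where 4.56% of all genes were called higher. The call of Hoxa13 rested on the 5 counts of the first lung pNSC library, the ranges overlapped at 0, and without that library the log2 fold change was 0. It was also lost without either brain NSC library (adjusted p = 0.164 and 0.168) and with DESeq2 (adjusted p = 0.0586). No fold is given for it, because the bound lay under 1.

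Tail and lung pNSCs of the Nes-GFP mice differed in Hoxa9 and Hoxa10, both higher in the tail. The tail donors were postnatal and the lung donors adult, and age and tissue cannot be told apart. Hoxa10 was 9.91-fold higher (log2 fold change 3.29 ± 0.26, adjusted p = 3.27e-36). Hoxa9 was 32.7-fold higher with a counting interval of 5.45 to 1334, because the lung pNSCs had 1 count in all (adjusted p = 1.37e-07). Its log2 fold change was 4.70, and it was 6.91 without the first library of lung pNSCs, 3.96 without the second, and 4.01 without the second of tail pNSCs. In this comparison 5% of all genes were called higher in tail pNSCs. Hoxa13 did not pass (log2 fold change 1.30 ± 0.81, adjusted p = 0.180), and passed only when the first lung pNSC library was left out (adjusted p = 0.0173).

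Tail pNSCs of the Nes-GFP mice were lower than cells of the tail in all 4 members. Hoxa9 was 50.1-fold lower (log2 fold change -5.70 ± 0.18, adjusted p = 2.34e-219; -6.39 without the second library of tail pNSCs) and Hoxa13 33.0-fold lower (log2 fold change -5.10 ± 0.32, adjusted p = 8.87e-56). Hoxa11 was at least 70.1-fold lower (adjusted p = 1.36e-73). Hoxa10 differed least, 3.56-fold lower (log2 fold change -1.92 ± 0.13, adjusted p = 2.06e-46). Here 32.6% of all genes were called lower and the median log2 fold change of all genes tested was -0.16. Because the libraries are of bulk cells, fewer cells that transcribe a gene and less RNA per cell cannot be told apart.

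Between the tissues themselves, all 4 members were higher in tail cells than in lung cells, where 20.5% of all genes were called higher. The methods list tail cells as postnatal and lung cells as adult or postnatal. If the lung donors were adult, age and tissue cannot be told apart here. Hoxa10 was at least 147-fold and Hoxa11 at least 66.8-fold higher (adjusted p = 2.97e-161 and 2.10e-69). Hoxa9 was 1449-fold higher with a counting interval of 260 to 57274, and Hoxa13 372-fold higher with an interval of 66.4 to 14743, each against a single count in lung cells. The single count was in lung replicate 2 for Hoxa9 and in lung replicate 1 for Hoxa13. The log2 fold change of Hoxa9 moved from 10.23 to 12.66 without replicate 2 and to 9.29 without replicate 1. That of Hoxa13 moved from 8.28 to 10.68 without replicate 1 and to 7.51 without replicate 2. Lung pNSCs against lung cells gave the opposite picture to the tail for Hoxa10, at least 4.18-fold higher in the pNSCs (log2 fold change 6.71 ± 1.26, adjusted p = 1.61e-07), with 20.2% of all genes called higher. The other members did not pass there (for Hoxa13, adjusted p = 0.200).

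In the Wnt1Cre-mTmG experiment the question was how pNSCs relate to brain NSCs and to NCSCs. All 4 members were higher in tail pNSCs than in brain NSCs, against 9.16% of the 14448 genes tested. Hoxa9 was at least 85.0-fold higher (log2 fold change 11.49 ± 0.33, adjusted p = 9.30e-14), Hoxa13 at least 34.5-fold (log2 fold change 10.19 ± 0.54, adjusted p = 1.40e-08) and Hoxa11 at least 24.1-fold (log2 fold change 9.67 ± 0.60, adjusted p = 1.17e-09). Hoxa10 was 1551-fold higher (adjusted p = 9.89e-17), with a counting interval of 278 to 61300 that reflects the single count in brain NSCs.

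DRG pNSCs were higher than brain NSCs in Hoxa9 and Hoxa10 and not in the other members. Hoxa9 was at least 474-fold higher (log2 fold change 13.98 ± 0.22, adjusted p = 6.55e-16), and Hoxa10 758-fold higher with a counting interval of 136 to 29988 (adjusted p = 1.95e-14). In this comparison 3.12% of all genes were called higher. A fitted log2 fold change against a group at 0 depends on the tool, and DESeq2 gave 12.91 for Hoxa9 here and 10.42, 8.60 and 9.12 for Hoxa9, Hoxa11 and Hoxa13 in tail pNSCs. Hoxa11, at 1 count in 3 libraries, did not pass (adjusted p = 0.379), and Hoxa13 had no count. The library of brain NSCs with the 1 count of Hoxa10 set the size of that fold: without it the log2 fold change was 11.52 instead of 9.23 for DRG pNSCs and 12.54 instead of 10.25 for tail pNSCs.

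DRG NCSCs were themselves higher than brain NSCs in 3 of the 4 members, where 22.1% of all genes were called higher. Hoxa9 was at least 28.9-fold higher (adjusted p = 8.36e-12), Hoxa10 129-fold higher with a counting interval of 22.9 to 5112 (adjusted p = 5.37e-11), and Hoxa11 had a log2 fold change of 4.84 ± 1.48 (adjusted p = 0.00723) from 13 counts in 3 libraries. No fold is given for Hoxa11, because its bound lay under 1. Without the third library of brain NSCs the log2 fold change of Hoxa10 was 8.96 instead of 6.67, and without the second of DRG NCSCs that of Hoxa11 was 4.08.

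Compared with DRG NCSCs, tail pNSCs were higher in all 4 members, with larger folds for genes nearer the end of the cluster. Hoxa9 was 2.95-fold, Hoxa10 12.02-fold, Hoxa11 31.2-fold and Hoxa13 at least 60.9-fold higher (adjusted p from 6.17e-17 to 9.10e-10), while 15.3% of all genes were called higher. Without the second library of DRG NCSCs, which held 8 of their 13 counts of Hoxa11, the log2 fold change of Hoxa11 was 5.54 instead of 4.84. DRG pNSCs were higher than DRG NCSCs in Hoxa9, 16.4-fold (log2 fold change 4.03 ± 0.075, adjusted p = 8.99e-17), and in Hoxa10, 5.87-fold (log2 fold change 2.56 ± 0.097, adjusted p = 6.09e-14), with 15.1% of all genes called higher. Hoxa11 was lower in DRG pNSCs (log2 fold change -2.54 ± 1.07, adjusted p = 0.0384), with 23.3% of all genes called lower. Its ranges overlapped, and the call was lost without the second library of DRG NCSCs (adjusted p = 0.155) or without either of the first 2 libraries of DRG pNSCs (adjusted p = 0.133 and 0.114). Without the third library of DRG pNSCs it was kept at a log2 fold change of -4.88.

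Tail and DRG pNSCs of the same mouse line differed in all 4 members, and Hoxa9 differed in the direction opposite to the others. Hoxa9 was 5.57-fold lower in tail pNSCs (log2 fold change -2.50 ± 0.064, adjusted p = 2.69e-14), where 7.61% of all genes were called lower. Hoxa11 was 211-fold higher in tail pNSCs with a counting interval of 37.7 to 8365 (adjusted p = 1.70e-09), and Hoxa13 at least 33.5-fold higher (adjusted p = 1.53e-08). Hoxa10 was 2.05-fold higher (log2 fold change 1.02 ± 0.070, adjusted p = 8.66e-10). In this direction 10.4% of all genes were called. The log2 fold change of Hoxa10 was close to the limit of 1 and fell just under it without the third library of tail pNSCs (0.999) or the third of DRG pNSCs (0.966). Leaving out the third library of DRG pNSCs, with its 1 count of Hoxa11, moved the log2 fold change of Hoxa11 from 7.38 to 9.72.

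In the Sox2-GFP experiment none of the 4 members had more than 1 count in any of the 8 libraries, and none passed the filter on low counts. They were therefore not tested. Of the 16234 genes that were, 5.76% were called higher in Sox2-GFP lung pNSCs than in brain NSCs. At this depth, levels under 3 counts per library were not detectable.

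The difference between experiments was larger than that between replicates for tail pNSCs. A fit of all 28 libraries, with a direct comparison added after the data were seen, put all 4 members higher in Wnt1Cre-mTmG tail pNSCs than in Nes-GFP tail pNSCs, against 13.7% of the 17393 genes tested. Hoxa9 was 27.96-fold higher (log2 fold change 4.76 ± 0.17, adjusted p = 1.08e-21), Hoxa13 28.8-fold (log2 fold change 4.81 ± 0.32, adjusted p = 9.85e-14) and Hoxa11 at least 39.9-fold (adjusted p = 4.95e-14). Hoxa10 was 6.56-fold higher (log2 fold change 2.70 ± 0.096, adjusted p = 1.67e-22). Without the second library of Nes-GFP tail pNSCs the log2 fold change of Hoxa9 was 5.44. The mouse line, the sorting of the starting cells, the animals, the picked clusters and the sequencing of the experiment differ together here and cannot be told apart.

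The interaction terms, which compare each pNSC group with the brain NSCs of its own experiment, called none of the members in edgeR (none at an unadjusted p under 0.05, and 1 in each term with DESeq2), while 16% and 14.1% of all genes were called in either direction for tail and lung pNSCs. The brain NSC libraries that these terms rest on held at most 1 count of a member. In edgeR the SE was 8110, 18809 and 14020 for Hoxa9, Hoxa11 and Hoxa13 in tail pNSCs. In lung pNSCs it was 1005, 10694 and 7415 for Hoxa9, Hoxa10 and Hoxa13. These SEs were computed from the log2 fold change and the test statistic, so they only restate p-values close to 1. The brain NSCs of both experiments were at 0 for these members, so the missing calls decide nothing about them. The term for Hoxa10 in tail pNSCs was 0.31 ± 0.49 (adjusted p = 0.714) and rested on 1 count in the third library of Wnt1Cre-mTmG brain NSCs, without which it was 2.70. For lung pNSCs, the direct comparison put Hoxa10 lower in Sox2-GFP than in Nes-GFP cells (log2 fold change -5.01 ± 0.69, adjusted p = 2.06e-07), 47.05-fold with a counting interval of 7.78 to 1924, where 4.46% of all genes were called lower. The Nes-GFP lung donors were adult and the Sox2-GFP lung donors postnatal, and age and experiment cannot be told apart. Without the Sox2-GFP library that held its 1 count the log2 fold change was -6.67. Hoxa13 did not pass (adjusted p = 0.116), and passed only when the second library of Nes-GFP lung pNSCs, at 0, was left out (adjusted p = 0.0296).

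The balance of Hoxa9 and Hoxa10 differed between groups that contain both. The ratio of their counts was 0.0811 and 0.145 in Nes-GFP tail pNSCs, 0.485 to 0.505 in Wnt1Cre-mTmG tail pNSCs, 1.60 to 1.66 in tail cells, 1.65 to 2.35 in DRG NCSCs and 5.29 to 6.05 in DRG pNSCs. The ratio was thus lowest in both kinds of tail pNSCs and highest in DRG pNSCs, and of these groups only tail cells and DRG NCSCs overlapped. An exact two-sided permutation test of the log2 ratio gave p = 0.1 for each pair of the other groups that included 3 libraries, the smallest value that 2 against 3 or 3 against 3 libraries allow, so this test cannot reach a p under 0.05 with these numbers of libraries. The ratio was chosen after the values were seen.

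Levels of different genes were compared per kilobase of exon. On this scale Hoxa10 was the highest of the 4 members in Wnt1Cre-mTmG tail pNSCs (14.2 ± 0.49 cpm per kb, n = 3), in Nes-GFP tail pNSCs (2.17 ± 0.28, n = 2) and in tail cells (7.70 ± 0.058, n = 2, next to 7.36 ± 0.15 for Hoxa9). Hoxa9 was the highest in DRG pNSCs (22.9 ± 0.38 cpm per kb, n = 3, next to 6.93 ± 0.50 for Hoxa10) and in DRG NCSCs (1.40 ± 0.20, n = 3, next to 1.18 ± 0.040). With the longest transcript in place of the union of exons, Hoxa9 took first place in tail cells and the order at the top stayed in the other 4 groups.

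The 4 members made up different shares of the summed per-kilobase level of the HoxA genes. The share was 75.0 ± 0.97% in Wnt1Cre-mTmG tail pNSCs (n = 3) and 56.01% and 61.4% in tail cells. It was 41.4 ± 3.25% in DRG NCSCs (n = 3) and 17.9 ± 0.29% in DRG pNSCs (n = 3). Nes-GFP tail pNSCs reached 6.59% and 8.34%, Nes-GFP lung pNSCs 0.626% and 1.04%, and lung cells at most 0.0356%. With the longest transcript in place of the union of exons, an alternative added after the data were seen, it was 43.5% to 48.6% in DRG NCSCs and at most 24.8% in DRG pNSCs. The gene of the cluster with the highest level was Hoxa10 in Wnt1Cre-mTmG tail pNSCs and Hoxa5, which acts in the neck, thorax and lung, in DRG pNSCs, Nes-GFP tail pNSCs and all lung groups, with either length. In tail cells and DRG NCSCs it depended on the length used, and was Hoxa10 and the central gene Hoxa7 with the union of exons and Hoxa9 in both with the longest transcript.

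**Figure D2:**
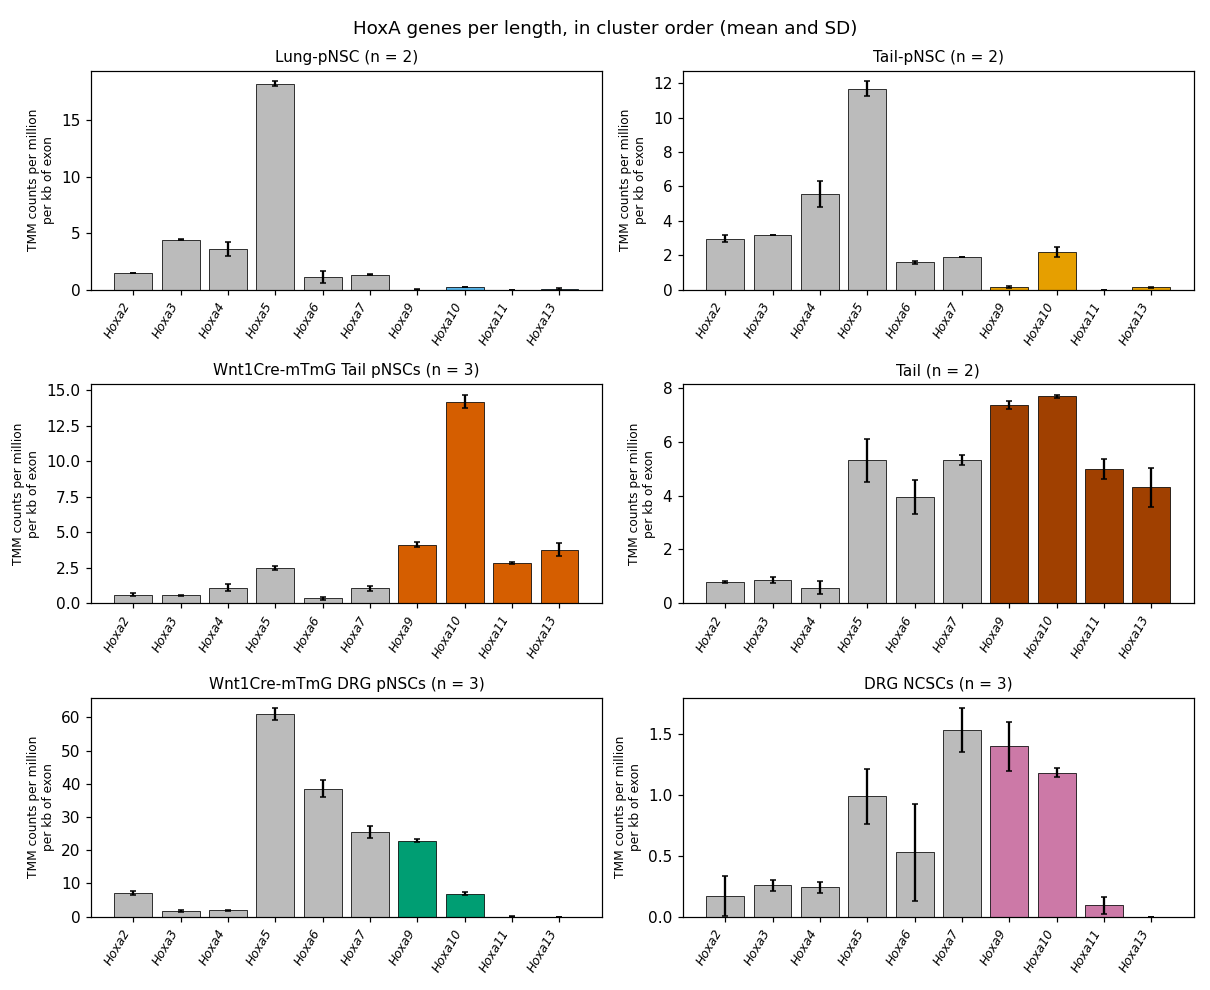
Level of 10 HoxA genes, from Hoxa2 to Hoxa13, in 6 groups, in cpm per kilobase of exon on separate linear axes, with the genes in cluster order. Bars are group means, error bars are SD, and the 4 members are coloured. In Wnt1Cre-mTmG DRG pNSCs the level was 22.9 cpm per kb at Hoxa9 and 6.93 at Hoxa10 with almost nothing beyond, whereas Wnt1Cre-mTmG tail pNSCs were highest at Hoxa10, with 14.2 cpm per kb.

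The 7 anterior and central HoxA genes were counted beside the posterior members. In Nes-GFP tail pNSCs 3 of 7 were higher than in brain NSCs, against 4.31% of all genes, namely Hoxa2, 4.02-fold, Hoxa3, 2.90-fold, and Hoxa6, for which the 2 brain NSC libraries lay far apart, at 0.193 and 0.652 cpm. Of these genes, Hoxa2 patterns the second branchial arch and Hoxa3 the thymus and parathyroid. In Nes-GFP lung pNSCs 3 of 7 were higher (4.56% of all genes), with Hoxa3 at 26.6 cpm against 6.57 cpm, and in Sox2-GFP lung pNSCs 5 of 7 (5.76% of all genes), with Hoxa5 at 34.6 cpm against 5.98 cpm. In Wnt1Cre-mTmG tail pNSCs and DRG pNSCs all 7 were higher than in brain NSCs, against 9.16% and 3.12% of all genes. Between Wnt1Cre-mTmG tail and DRG pNSCs the central genes went with the DRG. Hoxa5 was at 115 cpm in DRG pNSCs and 4.59 cpm in tail pNSCs, Hoxa7 at 73.2 and 3.02 cpm, and Hoxa6 at 33.7 and 0.296 cpm, and 5 of 7 were lower in tail pNSCs, against 7.61% of all genes. Wnt1Cre-mTmG tail pNSCs were also lower than Nes-GFP tail pNSCs in 5 of these 7, with Hoxa3 at 3.22 against 19.0 cpm and Hoxa5 at 4.59 against 21.9 cpm, where 6.5% of all genes were called lower, while they were higher in all 4 posterior members. The brain NSCs of the 2 experiments differed in these genes too, with Hoxa5 at 16.1 cpm in Nes-GFP and 0.895 cpm in Wnt1Cre-mTmG brain NSCs. Relative to the brain NSCs of each experiment the direction was the opposite. The interaction term was called higher for Wnt1Cre-mTmG tail pNSCs in 4 of the 7 and lower in none. Of all 17393 genes tested, 1558 were called higher and 1227 lower for this term. Its median log2 difference over the 7 genes was 1.91, against -2.26 in the direct comparison. Against tail cells, Nes-GFP tail pNSCs were higher in 5 of the 7 and lower in 2, where 14.1% of all genes were called higher and 32.6% lower.

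The posterior genes of the other clusters were counted in the same way, over a list of 12. In Nes-GFP tail pNSCs 5 of the 11 tested were higher than in brain NSCs, against 4.31% of all genes, and Hoxb9 (24.1 to 27.2 cpm), Hoxd9 (20.3 to 21.3 cpm), Hoxb13 (8.91 to 9.96 cpm) and Hoxd10 (4.58 to 4.63 cpm) were at 0 in brain NSCs of that experiment. In Nes-GFP lung pNSCs none of the 11 was called against brain NSCs by edgeR or DESeq2, nor reached an unadjusted p under 0.05. The listed genes were at 0 in these brain NSCs. In lung pNSCs only Hoxd9 (0.0131 cpm per kb) and Hoxd13 (0.00954 cpm per kb) were above 0. The genes passed the filter through the tail groups of the fit, so the missing calls in this comparison decide nothing. Of all 16948 genes tested there, edgeR called 773 higher and 703 lower. None of the 12 passed the filter on low counts in the Sox2-GFP experiment. In Wnt1Cre-mTmG tail pNSCs all 10 tested were higher than in brain NSCs (9.16% of all genes), among them Hoxb9 at 82.1 cpm and Hoxb13 at 52.0 cpm. In DRG pNSCs 8 of 10 were higher (3.12% of all genes), among them Hoxc9 at 22.5 cpm and Hoxc10 at 19.9 cpm. Hoxb9 (1.28 against 82.1 cpm) and Hoxb13 (0.458 against 52.0 cpm) were lower in DRG pNSCs than in tail pNSCs, and Hoxc9 was at 0.555 cpm in tail pNSCs. Tail cells were higher than lung cells in all 11 tested, against 20.5% of all genes. Nes-GFP tail pNSCs were lower than tail cells in 10 of 11, against 32.6% of all genes, with Hoxc12 and Hoxc11 at 0 against 24.3 and 19.1 cpm.

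**Figure D3:**
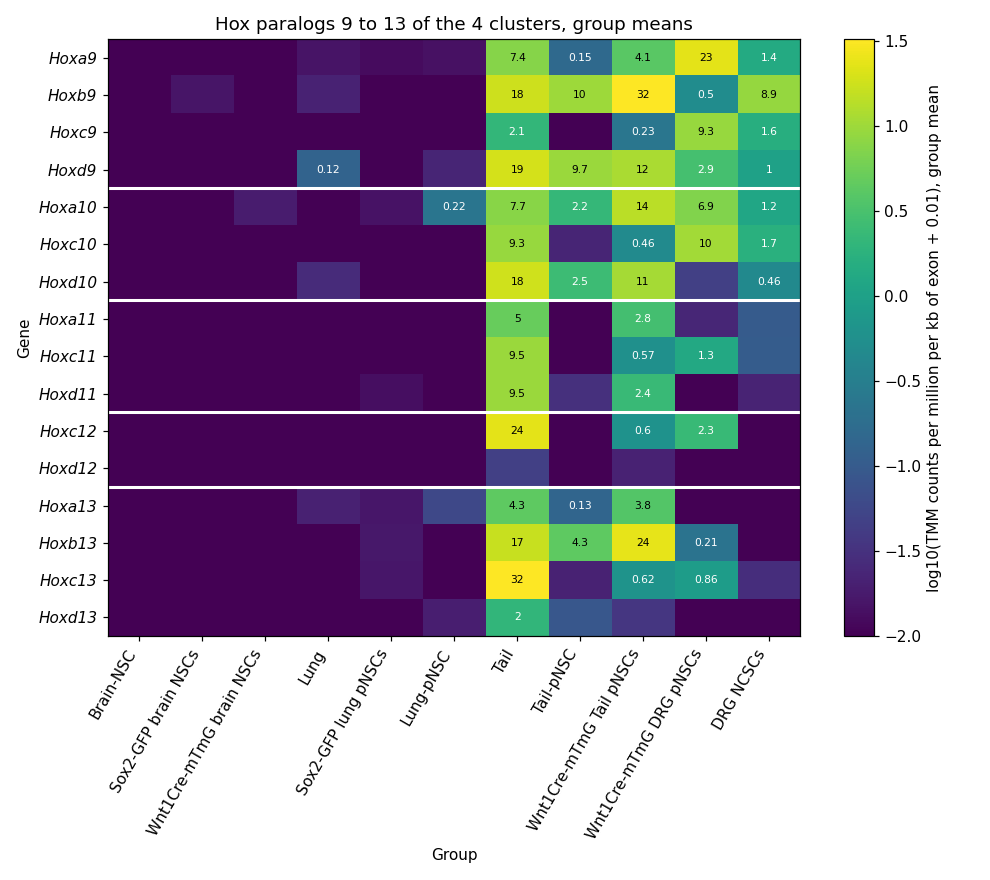
Heat map of the 4 members and the posterior genes of HoxB, HoxC and HoxD (rows) in the 11 groups (columns). Colour shows the log10 of the group mean in cpm per kilobase of exon with 0.01 added, and cells of 0.1 or more carry their value. Wnt1Cre-mTmG tail pNSCs were high in Hoxb9 and Hoxb13, Wnt1Cre-mTmG DRG pNSCs in Hoxa9, Hoxc9 and Hoxc10, and the lung groups and brain NSCs were under 0.1 cpm per kb except for Hoxa10 in Nes-GFP lung pNSCs (0.219) and Hoxd9 in lung cells (0.123).

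Among noncoding genes at the cluster, Hoxa11os was at 10.2 cpm in tail cells and 6.16 cpm in Wnt1Cre-mTmG tail pNSCs and at or under 0.137 cpm on average elsewhere. Their exons overlap and the counting mode is not given, so reads of the shared stretch may have been counted for either gene, for both or for neither. Of 6 tested genes on the noncoding list, 2 were called higher than in brain NSCs in Nes-GFP tail pNSCs, against 4.31% of all genes. In Wnt1Cre-mTmG tail pNSCs 5 were higher and 1 lower, where 1323 and 1307 of 14448 genes were called. In DRG pNSCs 4 were higher, against 3.12%. None of the 6 was called in Nes-GFP lung pNSCs, where 3 had an unadjusted p under 0.05. In Sox2-GFP lung pNSCs 2 of 4 were higher, against 5.76%. Halr1, which lies beyond the anterior end of HoxA, was higher in Nes-GFP tail pNSCs than in brain NSCs (8.40 against 1.01 cpm). It was lower in Wnt1Cre-mTmG tail pNSCs than in the brain NSCs of that line (0.406 against 1.04 cpm, adjusted p = 0.00604). Those brain NSCs varied with an SD of 0.53 cpm. Of the 4 tested genes flanking the cluster, none was called between any pNSC group and its brain NSCs by edgeR or DESeq2. In each comparison 2 to 4 of them had an unadjusted p under 0.05. Of all genes, edgeR called 1848 and 1476 of 16948 in Nes-GFP tail and lung pNSCs and 2556 of 16234 in Sox2-GFP lung pNSCs. In Wnt1Cre-mTmG tail and DRG pNSCs it called 2630 and 1377 of 14448. With so few flanking genes, their count was not read as a result about them.

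Known regulators and partners of Hox proteins were counted between pNSCs and brain NSCs beside all genes called in either direction by edgeR. These were 1848 of 16948 genes for Nes-GFP tail pNSCs, 1476 of 16948 for Nes-GFP lung pNSCs and 2556 of 16234 for Sox2-GFP lung pNSCs. For Wnt1Cre-mTmG tail pNSCs and DRG pNSCs they were 2630 and 1377 of 14448. The 21 chromatin regulators were members of the Polycomb and Trithorax groups and Ctcf. None of them was called for Nes-GFP tail pNSCs, Nes-GFP lung pNSCs, Sox2-GFP lung pNSCs or DRG pNSCs by edgeR or DESeq2. In each of these comparisons 10 to 16 had an unadjusted p under 0.05. These counts of 0 stand beside the all-gene counts above, and the difference was not tested. In Wnt1Cre-mTmG tail pNSCs 2 of 21 were called higher, a share near the 9.16% of all genes, and Pcgf2, a subunit of a Polycomb repressive complex, was among them (28.01 against 4.80 cpm). The 9 TALE genes encode cofactors that bind DNA together with Hox proteins. Of these, 1 was called in each of Wnt1Cre-mTmG tail, DRG and Nes-GFP lung pNSCs. In Sox2-GFP lung pNSCs 2 were called, and in Nes-GFP tail pNSCs none. Meis1 was higher in Wnt1Cre-mTmG tail pNSCs (119 against 54.8 cpm) and Pbx3 in DRG pNSCs (65.5 against 27.1 cpm), each against brain NSCs. Meis2 was lower in both kinds of lung pNSCs (18.6 against 73.6 cpm in Nes-GFP and 14.6 against 55.9 cpm in Sox2-GFP). Of the tested regulators of the caudal body axis, 1 of 4 was called in Nes-GFP lung pNSCs and 1 of 3 in DRG pNSCs. None was called in the other pNSC groups. Among these regulators, T, a gene of the tail bud and notochord, was at 23.2 cpm in tail cells and at 1.63 cpm in Nes-GFP tail pNSCs. It was not called between tail pNSCs and brain NSCs in either experiment (3.68 and 3.75 cpm in Wnt1Cre-mTmG cells). It was lower than in brain NSCs in Nes-GFP lung pNSCs (0.319 against 1.66 cpm) and in DRG pNSCs (0.766 against 3.75 cpm).

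Markers fixed for each cell type were set beside the members. All 8 NSC markers, among them Sox2, Nes and Olig2, were at 1 cpm or more in every pNSC and brain NSC group, with sums of 4585 to 6506 cpm, against 88.1 cpm in tail cells and 298 cpm in lung cells. DRG NCSCs reached 1615 cpm with Hes5 at 0. All 8 neural crest and Schwann cell markers were at 1 cpm or more in DRG NCSCs and summed to 5341 cpm there and to 922 cpm in tail cells. Among pNSC and brain NSC groups the sum was 10.2 to 216 cpm. Sums of 10 mesenchymal genes, which fill tail tissue, ran to 74545 cpm in tail cells, 606 cpm in Wnt1Cre-mTmG tail pNSCs, 40.7 cpm in Nes-GFP tail pNSCs and 36.4 cpm in DRG pNSCs.

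As a share of the level in tail cells, the mesenchymal sum was 0.813% in Wnt1Cre-mTmG tail pNSCs, whereas Hoxa9, Hoxa10, Hoxa11 and Hoxa13 were at 55.8%, 184%, 56.9% and 87.5%. In Nes-GFP tail pNSCs the mesenchymal sum was 0.0546% and the members were at 2.00%, 28.1%, 0% and 3.03%. In DRG pNSCs it was 0.0489%, with Hoxa9 at 311% and Hoxa10 at 90.0%. DRG NCSCs had a larger mesenchymal sum, 9.63% of that in tail cells, with Hoxa9 at 18.9%, Hoxa10 at 15.3% and Hoxa11 at 1.83%. Wnt1Cre-mTmG brain NSCs had a mesenchymal sum of 59.0 cpm, against 606 cpm in tail pNSCs of the same line. Summed over 5 muscle markers, the level was 388 cpm in tail cells, 48.1 cpm in Nes-GFP tail pNSCs and 58.8 cpm in Wnt1Cre-mTmG tail pNSCs, against 34.9 and 10.3 cpm in the brain NSCs of these experiments, with Myog at 0 in both kinds of tail pNSCs and Myod1 at 0 in the Nes-GFP ones. The part of other cell types in the levels of the members was not tested.

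**Figure D4:**
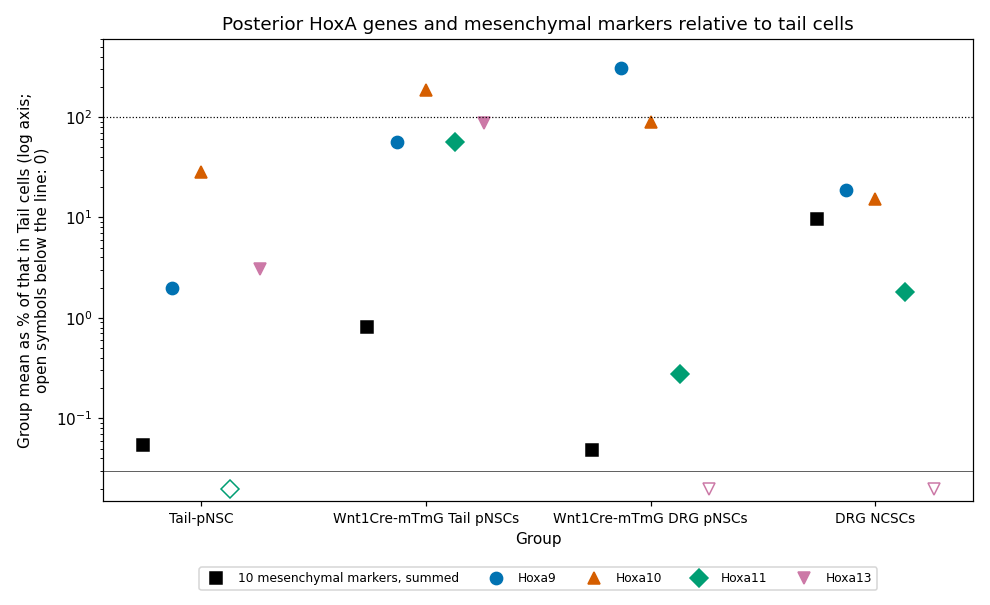
Group mean of each member and of the summed 10 mesenchymal markers in 4 groups, as a percent of the mean in tail cells, on a log axis. The dotted line marks 100%, and open symbols under the lower line are at 0. In Wnt1Cre-mTmG tail pNSCs the members sat between 55.8% and 184%, and the mesenchymal sum at 0.813%.

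The genes whose group means over the 11 groups were most like each member were ranked by Pearson's r on log2 cpm with 1 added, among 16576 genes. These coefficients describe 11 means, many of them at 0, and carry no test. For Hoxa9 the leading genes were Rps6-ps3 (r = 0.93), Hoxc10 (r = 0.92) and Rps3a1 (r = 0.91). Hoxc10 was at 19.9 cpm in DRG pNSCs, 17.7 in tail cells, 3.25 in DRG NCSCs and 0.880 in Wnt1Cre-mTmG tail pNSCs. Rps6-ps3 lay only between 0.297 and 1.09 cpm over the groups. Rps3a1 lay between 175 and 556 cpm, with 214 to 308 cpm in brain NSCs, where Hoxa9 was at 0. Spearman's rho with Hoxa9 was 0.67 for Rps6-ps3 and 0.66 for Rps3a1, against 0.92 for Hoxc10. For Hoxa10 they were Hoxd8, Hoxd4 and Hoxd3os1, each with r = 0.95. For Hoxa11 they were Hoxa11os (r = 1.00), Hoxd11 (r = 0.99) and Magel2 (r = 0.99), and for Hoxa13 Magel2 (r = 1.00), Nhlh1 (r = 0.99) and Hoxa11os (r = 0.99). Magel2, an imprinted gene, was at 19.8 cpm in tail cells and 16.0 cpm in Wnt1Cre-mTmG tail pNSCs, and Hoxd11 at 39.9 and 10.0 cpm. Among the members, Hoxa11 and Hoxa13 were most alike (r = 0.99), Hoxa9 and Hoxa10 followed (r = 0.90), and Hoxa9 and Hoxa13 were least alike (r = 0.56). By Spearman's rho the order was another, with Hoxa9 and Hoxa10 most alike (rho = 0.83), Hoxa9 and Hoxa13 at 0.46 and Hoxa11 and Hoxa13 least alike (rho = 0.35).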

How the data were processed

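Mouse polyA RNA-seq libraries were sequenced single-end by the authors, who aligned them to GRCm38 with HISAT2 and used Cufflinks and HTSeq. The deposited values are raw counts per gene, with no normalization, for 28 samples. The strand setting, counting mode and annotation release are not given in the sources used here. Groups and replicate numbers came from the labels. Per experiment, low genes were removed by filterByExpr (count of 10, total of 15), libraries were scaled by TMM, and a model was fitted over all groups with the quasi-likelihood test of edgeR 4.0.16 in R 4.3.3 (two-sided, Benjamini-Hochberg adjustment over all genes tested). Each SE is the absolute log2 fold change divided by the square root of the F statistic of that test. Experiments were compared in 1 fit of all 28 samples. A fold against a group at 0 was computed against 3 counts per library. A group with 1 to 3 counts in all gives a ratio with an exact 95% counting interval.

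The text names the 4 members, the 3 genes most correlated with each, and up to 4 called genes per list and comparison with the largest log2 fold changes. Members and lists were chosen with earlier results of these data known. The fits were tested on simulated data. Alternatives were DESeq2 1.42.0, other filters and scalings, fewer or more groups in the fit, no limit on the fold change, the replicate number as a block, other correlation settings, the longest transcript as length, and leaving out each library in turn. Figures and sequences were made with Python 3.11.15, matplotlib 3.10.9 and Biopython 1.88. Results for some genes and sequences are not reported here.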

Additional observations from a re-analysis of the deposited data

Results flagged for a closer look

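Hoxa10 moved in opposite directions from tissue to pNSCs in tail and lung of the Nes-GFP experiment. Both libraries of tail pNSCs (6.43 and 7.74 cpm) lay below both of tail cells (25.1 and 25.3 cpm), with a log2 fold change of -1.92, whereas both libraries of lung pNSCs (0.758 and 0.673 cpm) lay above both of lung cells, which were at 0, with a log2 fold change of 6.71. The difference between these changes was not tested, and the second rests on 28 counts of Hoxa10 in lung pNSCs.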

How the results depend on the processing

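Of 241 counts of members called under an alternative setting, 223 stayed within 1.5 times the main count, and no called member changed direction. Members that were not called did change sign in lung pNSCs when single libraries were left out, such as Hoxa13 against lung cells (from 1.88 to -2.38) and Hoxa9 (from -0.17 to 2.25). For Nes-GFP lung pNSCs against brain NSCs, the number of members called fell from 2 to 1 with DESeq2, the stricter filter (mean count of 100), the replicate block, the fit of all 28 samples and the fit of only the 2 groups, and ran from 1 to 2 when single libraries were left out. The member lost each time was Hoxa13 (adjusted p = 0.0621 with the block and 0.0794 with all 28 samples). For tail against lung pNSCs of the Nes-GFP experiment it was 1 in place of 2 in the fit of only these groups. The stricter filter removed Hoxa11 and Hoxa13 from the test and left 2 of 4 members called for Nes-GFP tail pNSCs against tail cells, tail against lung cells, and Wnt1Cre-mTmG tail pNSCs against brain NSCs, DRG NCSCs, DRG pNSCs and Nes-GFP tail pNSCs. With DESeq2 each of the 2 interactions called 1 member in place of 0, Hoxa11 for tail pNSCs (log2 difference 8.48, adjusted p = 0.00107) and Hoxa10 for lung pNSCs (-5.57, adjusted p = 0.0291). For Sox2-GFP against Nes-GFP lung pNSCs, leaving out single libraries gave 1 to 2. Of the 3 genes most like each member, 1 was kept for Hoxa9 and 2 for the other members with 0.1 cpm added in place of 1, 1 for Hoxa9 and 0 for the others with Spearman's rho, and 1 for Hoxa9 and Hoxa10 and 2 for the others without lung and tail cells.

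Same-numbered samples did not deviate together (correlations of -0.0154 to 0.0549, none over 0.1), so the numbers were not taken as pairs. With the replicate number as a block, Hoxa11 in DRG pNSCs against DRG NCSCs was lost as well (adjusted p = 0.0539). Levels under 3 counts (0.131 to 0.294 cpm) rest on single reads and are not reliable in any member.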
